A study of Homo sapiens with 4 samples.

Results

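Glycerolipids and phospholipids are built on glycerol. In the glycerol phosphate route, GPAT enzymes attach the first fatty acid to glycerol-3-phosphate and AGPAT enzymes attach the second, which gives phosphatidic acid. Lipins remove the phosphate to give diacylglycerol, from which DGAT enzymes make triglyceride for storage in lipid droplets, and from which the head group enzymes make phosphatidylcholine and phosphatidylethanolamine. Phosphatidic acid can instead be activated to CDP-diacylglycerol for phosphatidylinositol, phosphatidylglycerol and cardiolipin, and lysophospholipid acyltransferases exchange the fatty acids of finished phospholipids.

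The 43 genes of these steps were chosen by symbol, as 8 acyltransferases of the glycerol phosphate route, 3 lipins, 8 genes of triglyceride synthesis, storage and breakdown, 14 head group genes, 7 remodeling acyltransferases and 3 genes of the phospholipase D family. Of the 23622 genes in the table, 42 were members. CDS1 was not analysed here, and all other members passed the filter, which asked for 10 normalized counts or more in 2 or more libraries. GPAT3 passed it through the sh-IRF1 libraries only.

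RNA was sequenced from MV4-11, an established line of human acute myeloid leukemia cells, in 2 sh-NC and 2 sh-IRF1 libraries. Per the methods, cells received a short hairpin RNA from a lentiviral pLKO.1 vector, which lowers the transcript it matches, and infected cells were selected with puromycin for a few days before collection. The sh-IRF1 hairpin is directed at IRF1, an interferon-regulated transcription factor, and sh-NC is the control, which the labels describe as untreated and of the same wild-type genotype. Which IRF1 hairpin the sh-IRF1 libraries carry and whether libraries of a group come from separate cultures are not given in the sources used here, so the p-values measure only the spread between these samples.

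A library held between 17635908 and 18695337 reads, of which mitochondrial genes took 3.92% to 4.51%. IRF1 had normalized counts of 784.73 and 738.5 in the sh-NC libraries and 429.71 and 431.94 in the sh-IRF1 libraries, a mean of 56.6% of the control, and other genes overlap 22.9% of its exonic bases. All 8 markers of myelomonocytic leukemia cells were in the table, with a summed level of 1732 and 1721 RPM (reads scaled to library depth) in sh-NC and 1564 and 1561 in sh-IRF1. FLT3 alone held 961 and 960 RPM in sh-NC and 724 and 721 in sh-IRF1, while the other 7 summed to 771 and 761 against 840 in both. FLT3 (log2 fold change -0.46), PTPRC (-0.48) and MPO (-1.42) were lower, SPI1 (0.17) and LYZ (0.85, with 34.7% of its exonic bases overlapped by another gene) were higher, and 3 were not called. The part of the shift in myeloid markers in the results below was not tested. In bulk RNA, fewer cells of a type and less RNA per cell cannot be told apart.

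To show what lies ahead of members called beyond a log2 fold change of 0.5, the RefSeq sequence (GRCh38.p14) of the 250 bases before the transcription start is given for GPAT3, AGPAT4 and PLIN2, 5′ to 3′ on the strand of the gene. The other such members, MGLL and AGPAT5, are not shown. Capitals mark a CACGTG motif, the E-box that MYC and TFE family factors bind. GPAT3 is on the plus strand (chr4:83535857-83536106), and AGPAT4 (chr6:161274062-161274311) and PLIN2 (chr9:19127493-19127742) are on the minus strand. The annotation holds a further PLIN2 start upstream and a GPAT3 start inside the window.
GPAT3: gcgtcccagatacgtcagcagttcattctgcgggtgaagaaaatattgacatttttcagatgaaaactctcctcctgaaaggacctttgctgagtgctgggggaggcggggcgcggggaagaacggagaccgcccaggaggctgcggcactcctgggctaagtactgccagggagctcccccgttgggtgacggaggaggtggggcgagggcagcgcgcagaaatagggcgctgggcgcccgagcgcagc
AGPAT4: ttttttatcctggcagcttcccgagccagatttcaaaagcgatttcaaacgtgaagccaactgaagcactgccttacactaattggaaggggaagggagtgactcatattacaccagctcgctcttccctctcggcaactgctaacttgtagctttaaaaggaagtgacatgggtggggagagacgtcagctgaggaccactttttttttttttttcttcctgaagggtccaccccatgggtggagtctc
PLIN2: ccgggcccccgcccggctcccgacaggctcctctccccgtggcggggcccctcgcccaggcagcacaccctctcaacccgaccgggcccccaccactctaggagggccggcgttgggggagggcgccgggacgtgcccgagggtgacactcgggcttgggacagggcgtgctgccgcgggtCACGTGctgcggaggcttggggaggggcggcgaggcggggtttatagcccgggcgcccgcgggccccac

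Promoters of 32 members were in the RefSeq table, each 250 bases before to 50 after a start, and 3 motifs were searched on both strands with any start of a gene counted. GAAANNGAAA, a core that interferon regulatory factors bind, was in 1 of the 32 (3.125%) and in 4.376% of 27305 genes with a promoter in the table. TCACNCCAC, a sterol response element of the SREBP factors, was in 1 member and in 1.388% of all genes. CACGTG was in 5 members (15.62%: LPIN2, PEMT, PLD3, PLIN2 and PTDSS2) and in 8.775% of all genes. These matches are descriptions of the letters only, and the absence of a motif says only that it is not in these windows.

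The following windows show the interferon regulatory factor core of LIPE (chr19:42427545-42427614, minus strand), the sterol response element of PNPLA2 (chr11:818731-818799, plus strand, where the motif reads on the opposite strand) and the E-boxes of PLD3, which had a pair of them (chr19:40348485-40348550 and chr19:40348530-40348595, plus strand). Capitals again mark the motif. The motifs shown begin 196, 153, 180 and 135 bases before the start, in that order. PTDSS2 also had a pair of E-boxes, which is not shown.
LIPE: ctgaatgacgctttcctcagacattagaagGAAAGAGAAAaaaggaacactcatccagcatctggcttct
PNPLA2: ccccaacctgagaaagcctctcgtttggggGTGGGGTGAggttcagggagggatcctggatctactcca
PLD3 distal: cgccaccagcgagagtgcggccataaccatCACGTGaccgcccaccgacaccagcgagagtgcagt
PLD3 proximal: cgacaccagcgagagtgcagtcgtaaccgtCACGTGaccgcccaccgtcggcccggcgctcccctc

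Genes of all 6 classes were compared between sh-IRF1 and sh-NC to ask how the route from glycerol phosphate to triglyceride and phospholipid responded to IRF1 knockdown. At an adjusted p under 0.05 in limma, 15 of the 42 members were higher (35.7%, against 20.3% of all genes tested) and 8 were lower (19.0%, against 21.9%), and 19 were not called. Changes were small. A log2 fold change above 0.5 was reached by 3 members (7.14%, against 8.27% of all genes), GPAT3, AGPAT4 and MGLL, and one below -0.5 by 2 (4.76%, against 7.56%), AGPAT5 and PLIN2. GPAT3 could pass the filter only where it was high, and without it 14 of 41 members were higher, 2 of them above 0.5. Over the members the median log2 fold change came to 0.13, over all 14120 genes tested to -0.0019, and the median size of the change was 0.233 and 0.259. The summed normalized count of the 42 members was 63568 and 63324 in sh-NC and 62116 and 62203 in sh-IRF1.

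**Figure D1:**
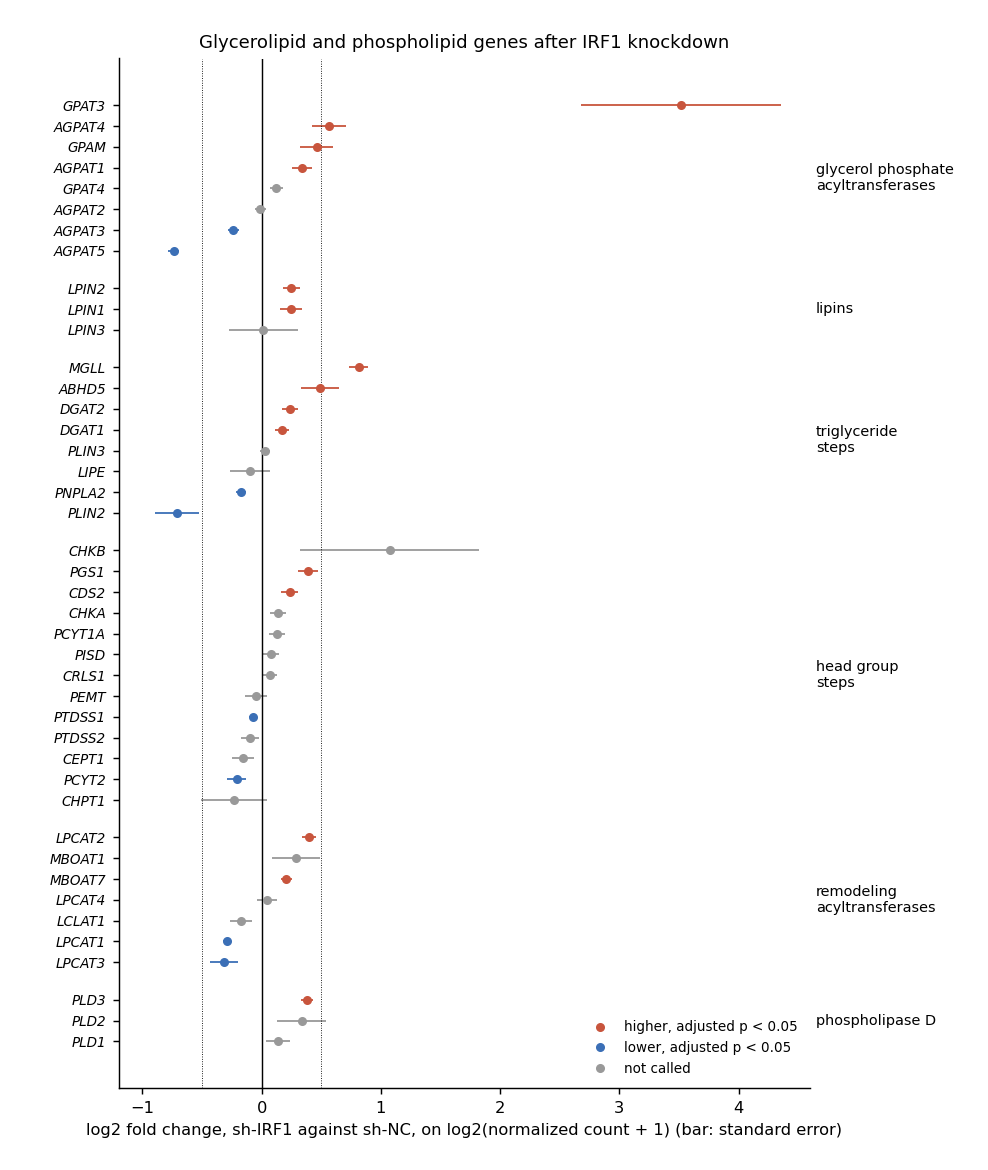
Log2 fold change (x axis, sh-IRF1 against sh-NC on the log2(normalized count + 1) scale) of the 42 members tested (y axis), by class, with bars of 1 standard error. Red points were higher and blue points lower at an adjusted p under 0.05 in limma, grey points were not called, and dotted lines mark 0.5 in either direction. Of the 5 called members past a dotted line, 3 are acyltransferases of the glycerol phosphate route, GPAT3 among them, and 2 are triglyceride genes. CHKB, a grey point past the line, has few reads.

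Acyltransferases of the glycerol phosphate route changed in both directions. Of the 8, 4 were higher and 2 were lower (3 and 2 of 7 without GPAT3), against 20.3% and 21.9% of all genes tested. The median log2 fold change of the class was 0.23, and 0.12 without GPAT3. Its summed normalized count in sh-IRF1 was nevertheless 89.0% of the control, with AGPAT3 and AGPAT5 lower. AGPAT5, an acyltransferase of the second step found at mitochondria and the endoplasmic reticulum (chr8:6708642-6761503), had normalized counts of 3281.51 and 3313.47 in sh-NC and 2039.15 and 1919.85 in sh-IRF1. Both sh-IRF1 libraries lay far below both controls, at 60.0% of their mean. The log2 fold change was -0.74 (SE 0.0469, limma adjusted p = 4.87e-18), the smallest adjusted p of the 42 members, and it stayed between -0.78 and -0.69 with any library left out.

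GPAT3, the acyltransferase of the first step that supplies triglyceride synthesis in adipocytes (chr4:83535914-83605875), was almost silent in the controls, with 1 read in each sh-NC library. It had 24 and 22 reads in the sh-IRF1 libraries, or normalized counts of 23.87 and 20.61 against 1.03 in both controls. The ratio was 21.6 with a 95% counting interval of 5.66 to 184 (exact, on 46 against 2 reads, covering counting error only). limma called it higher, but a gene that passes the filter only through the group where it is high had to differ, so its values are given as a description. Its fitted log2 fold change moved from 2.17 to 4.44 with the pseudocount and the tool and gives no fixed size. GPAT3 was a minor GPAT in sh-IRF1 too, with a mean of 0.350 reads per kilobase of exon, scaled to library depth (RPKM).

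AGPAT4, which acts at the same second step as AGPAT5 and is best known from brain (chr6:161129967-161274061), had normalized counts of 224.65 and 182.83 in sh-NC and 338.20 and 266.10 in sh-IRF1. The groups did not overlap, but the replicates of each group lay apart. The log2 fold change was 0.56 (SE 0.144, limma adjusted p = 0.0012). Without sh-IRF1 replicate 1 it was 0.39 with an adjusted p of 0.117, so the call rests on that library.

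The other members of the class changed less. AGPAT2, whose loss causes lipodystrophy, had the highest level per length of the class, with a mean RPKM of 80.7 in the controls and 82.5 in sh-IRF1. Its normalized counts were 2628.08 and 2728.02 in sh-NC and 2675.76 and 2635.70 in sh-IRF1, which overlap. AGPAT3 was lower (log2 fold change -0.24, limma adjusted p = 2.43e-05). AGPAT1, with 30.5% of its exonic bases overlapped by other genes, was higher (0.34, adjusted p = 0.00064), and both calls held with any library left out. GPAM, the mitochondrial GPAT of the first step, had normalized counts of 215.42 and 201.31 in sh-NC and 272.55 and 302.64 in sh-IRF1, without overlap. It was higher by 0.46 on the log2 scale (limma adjusted p = 0.0053), and without sh-IRF1 replicate 2 by 0.39 with an adjusted p of 0.101. GPAT4, the abundant GPAT of the endoplasmic reticulum, was not called (0.12, adjusted p = 0.070).

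**Figure D2:**
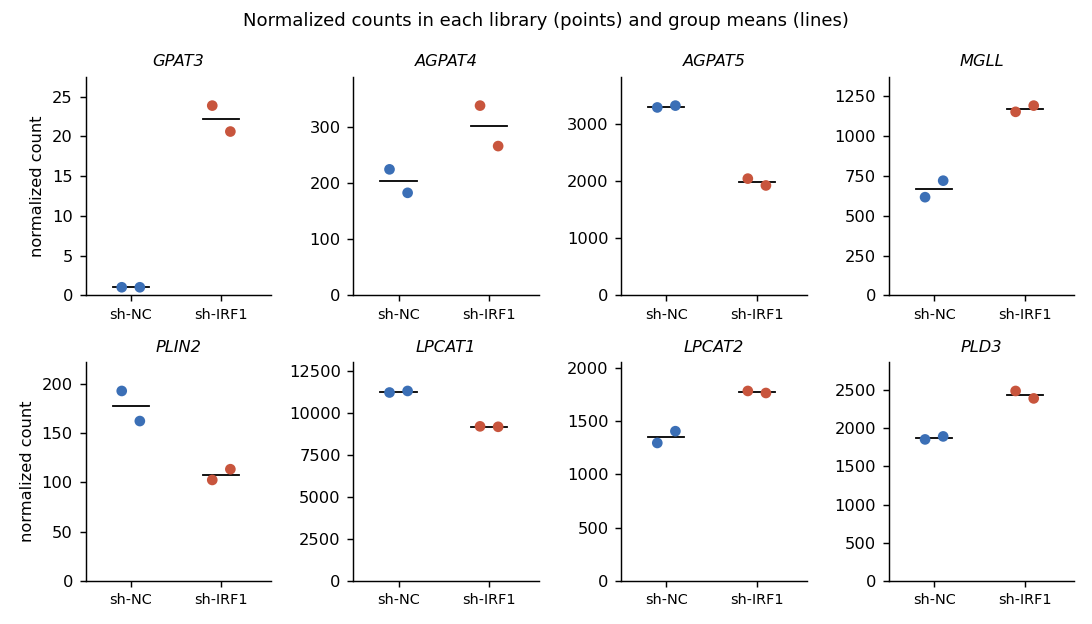
Normalized count (y axis, from 0, a scale of its own for each gene) in each sh-NC (blue) and sh-IRF1 (red) library for 8 members, with lines at the group means. All 8 were picked from the called members, so groups that lie apart follow from that choice. AGPAT5, PLIN2 and LPCAT1 are lower in both sh-IRF1 libraries and the other 5 are higher, and GPAT3 goes from 1.03 in each control to 23.87 and 20.61.

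The weight of each isozyme within its family was read from levels per length. The length was that of all annotated exons of a gene (1832 bases for AGPAT2 and 6236 for AGPAT5), so the shares depend on the annotation. In normalized counts, without length, AGPAT5 lay above AGPAT2 in both sh-NC libraries and below it in both sh-IRF1 libraries. GPAT4 made up 90.6% and 90.7% of the GPAT RPKM in sh-NC and 86.7% and 86.2% in sh-IRF1, and GPAT3 0.120% and 0.127% against 2.55% and 2.15%. GPAT4 was the main GPAT in all 4 libraries, and the summed GPAT RPKM had a mean of 12.7 in the controls and 14.9 in sh-IRF1. AGPAT5 made up 21.9% and 21.6% of the AGPAT RPKM in sh-NC and 14.6% and 14.0% in sh-IRF1. AGPAT2 made up 59.8% and 60.6% against 65.1% and 65.4%, and AGPAT1 7.51% and 7.08% against 9.67% and 10.5%. The 5 AGPAT genes together had a mean RPKM of 134 in the control and 127 in sh-IRF1. Shares of a family are tied to each other, since the fall of one raises the others, and were not tested.

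Lipins link the acyltransferases to both triglyceride and phosphatidylcholine, as phosphatases that turn phosphatidic acid into diacylglycerol. Of the 3, LPIN1 and LPIN2 were higher and LPIN3 was not called. LPIN2, the most abundant per length, had normalized counts of 844.23 and 825.80 in sh-NC and 964.87 and 1019.42 in sh-IRF1. Both sh-IRF1 libraries lay above both controls, with a log2 fold change of 0.25 (SE 0.0724, limma adjusted p = 0.0045). LPIN1 was higher by 0.25 on the log2 scale (adjusted p = 0.030). The calls ended without sh-IRF1 replicate 2 for LPIN2, and without any 1 of 3 libraries for LPIN1 (sh-NC replicate 1 and both sh-IRF1 libraries). LPIN3 had normalized counts between 47.25 and 58.09 in the 4 libraries, and its groups overlapped. The summed lipin RPKM had a mean of 9.21 in the controls and 11.2 in sh-IRF1, with nearly the same split between isozymes: LPIN2 held 67.2% to 68.6% in sh-NC and 68.6% to 68.7% in sh-IRF1.

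Among the 8 triglyceride genes, both DGAT enzymes and a pair of breakdown genes were higher, and the lipid droplet coat gene PLIN2 and the first lipase were lower. Together the 8 had a median log2 fold change of 0.10. Among all genes tested, 20.3% were called higher and 21.9% lower. MGLL, the monoglyceride lipase that releases the last fatty acid (chr3:127689062-128052190), had normalized counts of 616.50 and 720.01 in sh-NC and 1151.87 and 1190.89 in sh-IRF1. Both sh-IRF1 libraries lay well above both controls, at 175% of their mean. The log2 fold change was 0.81 (SE 0.0768, limma adjusted p = 2.05e-12), and between 0.70 and 0.92 with any library left out.

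PLIN2, a coat protein of lipid droplets (chr9:19108375-19149290), had normalized counts of 192.85 and 162.28 in sh-NC and 102.45 and 113.37 in sh-IRF1. The sh-IRF1 libraries lay at 60.8% of the control mean, without overlap, and the log2 fold change was -0.71 (SE 0.182, limma adjusted p = 0.0012). It stayed between -0.83 and -0.59, and called, with any library left out. PLIN3, the other droplet coat gene of the class, had the highest level per length (mean RPKM 61.1 in sh-NC and 64.4 in sh-IRF1). Its normalized counts of 3009.67 and 3055.67 in sh-NC and 3145.26 and 3051.71 in sh-IRF1 overlapped. It was not called (log2 fold change 0.03, limma adjusted p = 0.606).

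DGAT1 and DGAT2, unrelated enzymes that both add the third fatty acid, were higher by 0.17 and 0.24 on the log2 scale (limma adjusted p = 0.011 and 0.0039). DGAT1 had normalized counts of 1613.57 and 1611.54 in sh-NC and 1897.90 and 1736.20 in sh-IRF1. DGAT2 had 936.55 and 991.17 in sh-NC and 1112.08 and 1160.91 in sh-IRF1. Neither gene overlapped between groups, and DGAT1 held 74.1% to 76.7% of the DGAT RPKM in the 4 libraries. DGAT1 was no longer called without sh-IRF1 replicate 1 (0.11, adjusted p = 0.256), nor DGAT2 without sh-IRF1 replicate 2.

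Triglyceride breakdown genes moved in different directions. PNPLA2, the lipase that takes off the first fatty acid, was lower, with normalized counts of 3807.74 and 3617.50 in sh-NC and 3259.65 and 3321.56 in sh-IRF1 (log2 fold change -0.17, limma adjusted p = 0.00063). ABHD5, the co-activator of PNPLA2, was higher, with 185.67 and 164.34 in sh-NC and 302.39 and 199.57 in sh-IRF1 (0.49, adjusted p = 0.012). The sh-IRF1 libraries of ABHD5 lay far apart, and its log2 fold change was 0.19 (adjusted p = 0.496) without sh-IRF1 replicate 1 and 0.79 without sh-IRF1 replicate 2. LIPE, the hormone-sensitive lipase that acts next, had normalized counts of 200.03 and 164.34 in sh-NC and 145.23 and 197.70 in sh-IRF1, which overlap, and was not called.

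Most head group genes were not called. Of the 13 tested, 2 were higher, 2 were lower and 9 were not called, and no called gene was past 0.5. Their median log2 fold change was 0.07, and between 0.019 and 0.043 with any library left out. The call with the smallest adjusted p was PGS1, the first enzyme on the way from CDP-diacylglycerol to cardiolipin, a lipid of the inner mitochondrial membrane. It had normalized counts of 578.55 and 590.59 in sh-NC and 802.73 and 733.65 in sh-IRF1, without overlap. The log2 fold change was 0.39 (SE 0.0844, limma adjusted p = 0.00015), between 0.33 and 0.46 and called with any library left out.

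CDS2, a CDP-diacylglycerol synthase, was also higher (log2 fold change 0.24, limma adjusted p = 0.0058). Its normalized counts were 1057.59 and 928.51 in sh-NC and 1107.11 and 1233.05 in sh-IRF1, and the call ended without sh-NC replicate 2 (0.14) or sh-IRF1 replicate 2 (0.16). CRLS1, the cardiolipin synthase at the end of the branch that PGS1 begins, was not called (0.07, limma adjusted p = 0.354). Another gene overlaps 61.4% of the exonic bases of CRLS1. TAMM41, PTPMT1 and TAFAZZIN, further genes of the cardiolipin branch, were not called (log2 fold changes 0.22, -0.21 and -0.08). Other genes overlap 72.5% of the exonic bases of PTPMT1. CDIPT, of the phosphatidylinositol branch, was not called either (0.07).

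PTDSS1, which exchanges the head group of phosphatidylcholine for serine, had the highest level per length of all 42 members, with a mean RPKM of 97.1 in the controls and 95.1 in sh-IRF1. Its normalized counts were 10753.40 and 10723.10 in sh-NC and 9983.87 and 10411.60 in sh-IRF1. It was lower by a margin that just passed the test (log2 fold change -0.07, limma adjusted p = 0.041), and the call ended without any 1 of 3 libraries (both sh-NC libraries and sh-IRF1 replicate 1), with total-count scaling, and in edgeR and DESeq2. PTDSS2, which uses phosphatidylethanolamine instead, held 7.07% to 7.40% of the PTDSS RPKM in the 4 libraries and was not called (-0.09). PISD, which turns phosphatidylserine into phosphatidylethanolamine in mitochondria, was not called either (0.08).

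The CDP-choline and CDP-ethanolamine routes, by which diacylglycerol becomes phosphatidylcholine and phosphatidylethanolamine, held 1 call among 6 genes. With 20.3% of all genes called higher and 21.9% lower, a count among so few genes does not set these routes apart. PCYT2, which activates phosphoethanolamine with CTP, was lower, with normalized counts of 946.81 and 855.59 in sh-NC and 778.86 and 776.75 in sh-IRF1 (log2 fold change -0.21, limma adjusted p = 0.023). That call ended without any 1 of 3 libraries (sh-NC replicate 1 and both sh-IRF1 libraries), with total-count scaling and in DESeq2, and other genes overlap 28.3% of its exonic bases. PCYT1A, which does the same for phosphocholine, and the choline kinase CHKA had log2 fold changes of 0.13 and 0.14 and were not called. CHKB had normalized counts of 2.05 and 12.33 in sh-NC and 14.92 and 10.31 in sh-IRF1. Its 1.07 was not distinguishable from the spread (limma adjusted p = 0.258). CHKA held 98.4% to 99.7% of the CHK RPKM. Another gene overlaps 72.5% of the exonic bases of CHKB, and how shared reads were counted is not given, so this share may be too high. The final transferases CHPT1 (-0.23) and CEPT1 (-0.16) were not called. Their summed RPKM was 4.79 and 5.51 in sh-NC and 4.93 and 4.50 in sh-IRF1, which overlap. PEMT, which methylates phosphatidylethanolamine to phosphatidylcholine, was not called (-0.05).

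The remodeling acyltransferases put new fatty acids on lysophospholipids. Of the 7, 2 were higher, 2 were lower and 3 were not called, with a median log2 fold change of 0.05. These counts do not set the class apart from all genes tested, of which 20.3% were higher and 21.9% lower. LPCAT1, which makes the saturated phosphatidylcholine of lung surfactant and the main LPCAT of these cells (chr5:1456480-1523962), had normalized counts of 11207.80 and 11300.30 in sh-NC and 9194.07 and 9167.31 in sh-IRF1. The replicates of each group were close together and the groups far apart, so that a change of -0.29 on the log2 scale (SE 0.0296) had a limma adjusted p of 1.37e-11. With any library left out it was between -0.30 and -0.29.

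LPCAT2, which also makes platelet-activating factor in inflammatory cells, moved the other way. It had normalized counts of 1293.52 and 1404.07 in sh-NC and 1781.52 and 1762.44 in sh-IRF1, and was higher by 0.39 on the log2 scale (SE 0.0580, limma adjusted p = 1.81e-07). LPCAT1 made up 81.3% and 81.0% of the LPCAT RPKM in sh-NC and 75.7% and 76.2% in sh-IRF1, and LPCAT2 8.25% and 8.85% against 12.9% in both. The summed LPCAT RPKM had a mean of 118 in the controls and 106 in sh-IRF1. LPCAT1 was the main LPCAT in all 4 libraries.

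MBOAT7, which puts arachidonic acid on phosphatidylinositol, was higher, with normalized counts of 2860.93 and 2810.19 in sh-NC and 3212.90 and 3334.68 in sh-IRF1 (log2 fold change 0.21, limma adjusted p = 0.00011). LPCAT3, which favours polyunsaturated fatty acids, was lower (-0.32, adjusted p = 0.024), but another gene overlaps 66.0% of its exonic bases and the call ended without sh-NC replicate 2 or sh-IRF1 replicate 2, with total-count scaling, and in DESeq2. LPCAT4 (0.05), MBOAT1 (0.29) and LCLAT1, an acyltransferase for cardiolipin and phosphatidylinositol (-0.17), were not called.

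Of the phospholipase D family, PLD1 and PLD2 release phosphatidic acid from phosphatidylcholine, while PLD3 is a lysosomal nuclease. PLD3, whose E-boxes are shown above, had normalized counts of 1853.61 and 1892.97 in sh-NC and 2488.76 and 2391.15 in sh-IRF1. Both sh-IRF1 libraries lay above both controls, and the log2 fold change was 0.38 (SE 0.0498, limma adjusted p = 1.30e-08), between 0.35 and 0.41 with any library left out. Other genes overlap 21.4% of its exonic bases. PLD1 (0.14) and PLD2 (0.33, with normalized counts of 95.40 and 102.71 against 145.23 and 107.75) were not called. The log2 fold change of PLD2 lay near that of PLD3, at a lower level and with a larger SE (0.204), so the calls do not set the members apart.

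**Figure D3:**
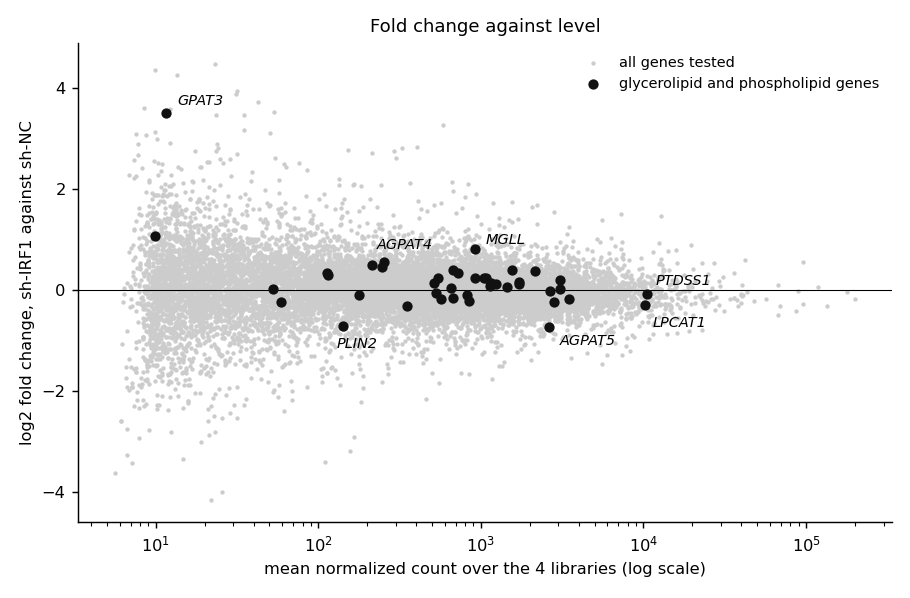
Log2 fold change (y axis, sh-IRF1 against sh-NC) against the mean normalized count of the 4 libraries (x axis, log scale) for all 14120 genes tested (grey) and the 42 members (black). Most members lie close to 0 among genes of like level. GPAT3 lies at the low end, where the spread is widest, and PTDSS1 and LPCAT1 at the high end, where the spread is narrowest.

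Leaving GPAT3 aside, 22 members were called, and 11 of them with each library left out in turn: AGPAT1, MGLL, PGS1, LPCAT2, MBOAT7 and PLD3 among the higher and AGPAT3, AGPAT5, PNPLA2, PLIN2 and LPCAT1 among the lower. The other 11 lost the call without at least 1 library. Past 0.5, the called genes beside GPAT3 were 2 of the other 7 acyltransferases of the glycerol phosphate route, 2 of 8 triglyceride genes and 0 of 13 head group genes. Over all genes tested, 8.27% were called above 0.5 and 7.56% below -0.5, and in classes this small such counts do not tell the classes apart. All 3 classes held calls in both directions. The class counts and medians are descriptions, and the difference between classes was not tested.

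A further 80 genes of the surrounding pathway were listed, of which 56 could be tested, with 13 higher, 13 lower and a median log2 fold change of 0.01. The same test called 20.3% of all genes higher and 21.9% lower. Past 0.5, 6 of the 56 were higher and 4 were lower, while over all genes 8.27% were higher and 7.56% lower. In the supply of precursors, ACSL3, an acyl-CoA synthetase of lipid droplets that activates fatty acids for this route, had normalized counts of 2752.20 and 3084.43 in sh-NC and 1711.89 and 1720.28 in sh-IRF1 (-0.76, limma adjusted p = 3.73e-17). Of the 7 precursor genes tested 3 were lower (ACSL3, ACSL4 by -0.47 and ACSL1 by only -0.14) and 1 was higher (ACSS2, 0.32). Most of the 7 are acyl-CoA synthetases, and ACSL5, a further one, was not called (-0.08).

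Of 10 other droplet and triglyceride genes that could be tested, 4 were higher and none was lower. Over all genes tested 20.3% were higher and 21.9% lower, and counts in a list this small do not set it apart. The smaller changes of the 4 were those of LIPA (log2 fold change 0.22) and CNEP1R1 (0.39). FITM2, which helps droplets to form from the endoplasmic reticulum, had normalized counts of 163.10 and 172.56 in sh-NC and 301.40 and 329.81 in sh-IRF1 (log2 fold change 0.91, limma adjusted p = 6.01e-07). PLIN4, a further droplet coat gene, had 32.83 and 33.89 in sh-NC and 72.61 and 90.89 in sh-IRF1 (1.26, adjusted p = 0.00034). In the perilipin genes PLIN2 was thus lower, PLIN4 higher and PLIN3 not called.

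Of 6 other head group genes, 1 was higher and 1 was lower, against 20.3% and 21.9% of all genes tested. The smallest adjusted p was that of SELENOI, the ethanolamine phosphotransferase that follows PCYT2, with a log2 fold change of -0.31 (limma adjusted p = 8.84e-06). Of 9 diacylglycerol kinases and lipid phosphatases 2 were higher and 3 were lower, to be read against the same shares. DGKZ, a kinase that returns diacylglycerol to phosphatidic acid, had normalized counts of 4930.98 and 4909.61 in sh-NC and 6407.90 and 6436.05 in sh-IRF1 (0.38, adjusted p = 7.64e-13). DGKG, a calcium-responsive kinase of the same family, was higher by 0.81.

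Of 24 other lysophospholipid acyltransferases and phospholipases 5 were higher and 6 were lower, against 20.3% and 21.9% of all genes tested. PLBD2, a phospholipase B-like protein of the lysosome, had normalized counts of 2044.40 and 2242.19 in sh-NC and 4713.91 and 4580.85 in sh-IRF1 (log2 fold change 1.12, limma adjusted p = 2.25e-25). PNPLA6, which breaks down phosphatidylcholine (0.78), and PLD4, a lysosomal nuclease related to PLD3 (0.53), were also higher. LPGAT1, an acyltransferase for lysophospholipids (-0.76), PLD6, a mitochondrial member of the phospholipase D family (-0.59), and DAGLA, a diacylglycerol lipase that supplies the substrate of MGLL (-0.59), were lower. DAGLB, a further diacylglycerol lipase, had a higher level per length (mean RPKM 8.62 against 1.58 for DAGLA in sh-NC) and was not called (0.01).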

How the data were processed

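RNA was sequenced from MV4-11 cells, 2 libraries per group. Per the labels, libraries were made with an Illumina TruSeq kit, and the submitters' processing notes name hg38 and HISAT2 2.0.5. How reads were counted, on which annotation and with or without strand is not given in the sources used here. The deposited values are a normalized signal, which the authors made from read counts with a single size factor for each library. Within 0.001 of a read, 100% of the values were whole multiples of a library's step, so the reads were recovered. Other columns of per-sample values numbered 0.

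The main test was limma 3.58.1 (R 4.3.3, mean-variance trend, robust shrinkage) on log2(value + 1), for genes with 10 or more in 2 or more libraries, and Benjamini-Hochberg adjustment over 14120 genes. The study's methods name DESeq2, which (1.42.0) was run with edgeR (4.0.16) on the recovered reads as an alternative. Levels per length are RPKM, reads per kilobase of exon scaled to library depth, with union exons from GENCODE 44 (GRCh38), which matched symbols to 23456 of 23622 identifiers together with a table of gene names. Sequences came from RefSeq (GRCh38.p14). The scripts were tested on simulated data.

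The members, classes and lists were chosen with earlier results of these data known. Values in every library were given by rule for members called beyond a log2 fold change of 0.5 and for the member with the highest level per length and with the smallest adjusted p of each class. The other members given so, the sum of CHPT1 and CEPT1, and the windows of PLD3, LIPE and PNPLA2 were chosen after their values or motifs were seen. Genes of the further lists were named when called beyond 0.5 or with the smallest adjusted p of a list. Some other genes of these lists, among them DAGLB, LIPA and CNEP1R1, were named outside this rule. With 2 against 2 libraries an exact permutation test cannot give a p under 0.333, so single values were tested in the fit across all genes only. Samples with the same replicate number did not deviate together (correlation -0.015), so they were not paired. A list of markers of other cell types is not reported here.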

Additional observations from a re-analysis of the deposited data

How the results depend on the processing

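No member's called fold change turned direction under any alternative, which covered TMM, total-count and upper-quartile scaling, no filter and a filter at 50, pseudocounts of 0.5 and 5, limma without robust shrinkage, edgeR, DESeq2, a replicate block and each library left out. Members lower numbered 8, and 5 with total-count scaling and with DESeq2. Total-count scaling ended 3 calls, all of them lower, and added 3, all of them higher, so the numbers higher and lower depended on the scaling. On the recovered reads, edgeR called 15 members higher and 7 lower, and DESeq2 14 and 5. Members higher beyond 0.5 numbered 3, and 5 with total-count scaling, which adds ABHD5 and GPAM. With 1 library left out they numbered from 2 to 5, the 5 without sh-NC replicate 1. Members lower beyond 0.5 were AGPAT5 and PLIN2 under all of these settings. With the replicate block, the counts were 15 higher and 8 lower, 3 and 2 beyond 0.5, so it changed no call count. With total-count scaling the median log2 fold changes were 0.27 for acyltransferases of the glycerol phosphate route, 0.29 for lipins, 0.15 for triglyceride genes, 0.12 for head group genes, 0.091 for remodeling acyltransferases and 0.38 for the phospholipase D family, and that of all genes was 0.043. With the filter at 50, which drops GPAT3 and CHKB, the first was 0.12 and that of head group genes 0.012. Leaving out GPAT3 alone, an alternative chosen after seeing the data, also gave 0.12 for the first. With 1 library left out, the medians ranged from 0.196 to 0.262, 0.170 to 0.264, 0.106 to 0.130, 0.019 to 0.043, 0.015 to 0.079 and 0.221 to 0.410, in the same order of classes. No spike-in is named in the sources used here, so a change in total RNA per cell cannot be seen. At this depth GPAT3 rests on 2 control reads. With 2 libraries per group, limma's estimate of the spread leans on all genes (median of 43 prior degrees of freedom). Leaving out a library leaves 1 sample in its group, which is then assumed to vary like the other group.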
